A study of Homo sapiens with 6 samples.

Results

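ID1, ID2 and ID3 (inhibitor of DNA binding, or inhibitor of differentiation) were followed in SK-Hep1 cells after knockdown of TARDBP. SK-Hep1 is an established adherent human line labelled as hepatocellular carcinoma, and TARDBP encodes TDP-43, a nuclear protein that binds RNA and DNA and acts in splicing and RNA stability. The 3 genes were read from 3 probes chosen by identifier, 1 per gene: ILMN_1664861 for ID1, ILMN_1793990 for ID2 and ILMN_1732296 for ID3. The probe annotation pairs each identifier with that gene, and the 3 genes are among 20046 named on the array of 47231 probes. Total RNA of 3 control samples, labelled siLuc, and 3 knockdown samples, labelled siTARDBP, was hybridised to 6 one-colour Illumina bead arrays, which report a brightness per probe. The labels name the cell line and the knockdown target only. They give no time after transfection, number of siRNA sequences or separate cultures, so the p-values below cover no more than the spread among these samples, which may be technical.

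ID proteins are small helix-loop-helix proteins that lack the basic region with which related factors grip DNA. They pair with E proteins, the widely expressed partners of lineage-specific basic helix-loop-helix factors, and keep them off DNA, which holds back differentiation and favours proliferation in many cell types. ID1, ID2 and ID3 are well-known direct targets of bone morphogenetic protein (BMP) signalling, in which ligands act through type I and type II receptors on SMAD1, SMAD5 and SMAD9, and these enter the nucleus with SMAD4. In liver, BMP signalling and ID1 are known for their part in iron regulation and, in mice, in the response of the sinusoidal endothelium to injury.

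After TARDBP knockdown 0 of 3 ID members passed the test, against 11.2% of the 15136 tested probes, a share at which 0 of 3 is no result about the members. The change in siTARDBP against siLuc was 0.04 on the log2 scale for ID1, -0.05 for the ID2 member probe and 0.14 for ID3. None of these was past an adjusted p of 0.05 (limma with Benjamini-Hochberg adjustment over all tested probes, n = 3 each). The other ID2 probe, ILMN_2086095, was brighter and differed by -0.22. It did not pass either (limma unadjusted p = 0.0345, adjusted p = 0.156). TARDBP itself fell 1.98-fold. A list of BMP and TGF-beta pathway genes and ID partners was drawn up with earlier results of these data known. Of its 32 tested probes, 9 passed (28.1%, against 11.2% of all tested probes). The tested probes of SMAD5, BMPR2, BAMBI and TGFB2 and 1 of 2 SMAD7 probes rose, by 1.32-fold to 1.75-fold. That SMAD7 probe was above background on 1 siLuc array and 3 siTARDBP arrays, so it was tested mainly through the group in which it was higher. FST fell 1.31-fold, and 1 of 3 tested TGFBR2 probes fell 1.25-fold. These SMAD7, FST, TGFBR2 and BMPR2 probes missed the threshold under some other settings, the TGFBR2 probe whenever 1 array was left out. All fold changes here are on a background-corrected and offset log2 scale that compresses the changes of dim probes.

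The 250 bases before the start of each ID gene are shown, as the regulatory sequence nearest to the start of the RNAs compared. BMP elements of the ID genes are known to lie further upstream as well, outside these windows. They were taken from RefSeq on GRCh38.p14, in which all 3 genes were matched. Capitals mark matches, on either strand, to 4 motifs. GGCGCC is a motif of SMAD1 and SMAD5 and CAGAC a shorter SMAD motif. CCAAT is bound by NF-Y, and TATAAA is bound by the TATA-binding protein. The windows are chr20:31605039-31605288 on the plus strand for ID1, chr2:8681806-8682055 on the plus strand for ID2 and chr1:23559502-23559751 on the minus strand for ID3.
ID1: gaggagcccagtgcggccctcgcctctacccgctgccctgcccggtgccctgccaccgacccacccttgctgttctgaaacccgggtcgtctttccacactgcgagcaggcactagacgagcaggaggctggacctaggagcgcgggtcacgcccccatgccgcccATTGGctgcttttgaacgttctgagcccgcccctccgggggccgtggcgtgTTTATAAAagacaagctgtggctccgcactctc
ID2: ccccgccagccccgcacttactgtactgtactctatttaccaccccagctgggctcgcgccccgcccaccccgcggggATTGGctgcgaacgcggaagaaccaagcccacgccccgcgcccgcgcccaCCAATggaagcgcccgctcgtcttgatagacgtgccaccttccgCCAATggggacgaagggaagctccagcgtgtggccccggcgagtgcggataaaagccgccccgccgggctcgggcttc
ID3: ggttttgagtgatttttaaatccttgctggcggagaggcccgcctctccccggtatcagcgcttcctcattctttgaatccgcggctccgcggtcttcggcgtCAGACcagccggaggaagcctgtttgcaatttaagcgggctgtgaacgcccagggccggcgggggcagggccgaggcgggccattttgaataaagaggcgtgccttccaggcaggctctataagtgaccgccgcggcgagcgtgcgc
The ID1 window holds 1 CCAAT match and 2 overlapping TATAAA matches on opposite strands, printed as 1 run of capitals. ID2 holds 3 CCAAT matches and ID3 holds 1 CAGAC match. No window holds GGCGCC. Among 27305 windows of the same length, 1 per gene, 16.1% hold GGCGCC, 37.8% CAGAC, 33.0% CCAAT and 11.1% TATAAA. A match describes letters and is not a measured binding site, and no match says only that the letters are not in this window.

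The targeted gene was read first, since it checks the labels. The TARDBP probe ILMN_1677532 gave raw intensities of 264.9, 214.3 and 203.2 in siLuc and of 135.9, 84.0 and 96.5 in siTARDBP. All 3 siTARDBP arrays lay below all 3 siLuc arrays, as the labels would have it. The normalised level fell by 0.98 on the log2 scale (standard error, SE, of 0.11, limma adjusted p = 1.59e-05). On 1 of the 3 siTARDBP arrays this probe was under the estimated background level, so the fall lies close to the lowest that the arrays can show. Across all probes, 1696 of 15136 tested probes passed the threshold (11.2%), 888 higher (5.87%) and 808 lower (5.34%). With scaling by the median over all probes, 282 were higher and 733 lower, and the median difference of all tested probes was -0.088. The background mode was 58.9 and 59.3 intensity units on the arrays numbered 2, 1 of each group, and between 71.5 and 75.9 on the other 4. None of 7 endothelial markers passed the filter. Of 8 hepatocyte markers with a probe, ALB (ILMN_1782939) and SERPINA1 (ILMN_2338452 and ILMN_2404154) passed it. That ALB probe was dim, at 118.152 against a level of 118.151 on siTARDBP replicate 3. The other ALB probe, the other SERPINA1 probes, APOA1, APOB, TTR, TF and FGB were under background on all 6 arrays. AFP was above it on 2 siLuc arrays and on no siTARDBP array and was not tested. AFP gave raw intensities of 124.9, 99.9 and 105.0 in siLuc and 87.2, 77.0 and 79.5 in siTARDBP, without overlap, and its part in any result was not tested. VIM and SPARC, which mark mesenchymal cells, were bright, and CDH2 also passed the filter. The other 3 of 6 mesenchymal genes, COL1A1, COL1A2 and FN1, did not pass it. Of 5 epithelial genes, 4 passed it, and KRT8 and KRT19 were bright as well. Mean raw intensities in siLuc were 3045.8 for KRT8 and 2156.1 for KRT19. They were 3675.2 for SPARC and 20384 and 16256.7 for the VIM probes. No tested probe of the marker lists for hepatocytes, endothelium, mesenchyme, epithelium or leukocytes passed the threshold.

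ID1 was the brightest member and the most variable among controls. Its raw intensity was 265.3, 202.3 and 179.6 in siLuc and 259.7, 175.0 and 189.8 in siTARDBP. The normalised log2 levels were 7.95, 7.87 and 7.53 in siLuc and 7.88, 7.79 and 7.78 in siTARDBP. The 3 siTARDBP arrays fell inside the range of the siLuc arrays, of which replicate 3 was the lowest of all 6. The difference was 0.04 (SE 0.11), with a 95% confidence interval from -0.20 to 0.27 (limma adjusted p = 0.878). On this scale the interval reaches from 1.15-fold lower to 1.21-fold higher. The sign of this small difference was not stable: it was -0.09 without siLuc replicate 3 and -0.03 with scaling by the median over all probes. Within the 4 arrays of higher background it was 0.09 and in the pair of lower background -0.08. A second ID1 probe, ILMN_1665832, was under the background level on all 6 arrays, at 0.677 to 0.860 of that level, and was not tested.

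ID2, which also binds the retinoblastoma protein, was measured above background on all 6 arrays by a pair of probes. The member probe ILMN_1793990 gave 182.6, 133.3 and 179.7 in siLuc and 165.3, 139.1 and 145.3 in siTARDBP. After normalisation its log2 levels were 7.47, 7.33 and 7.53 in siLuc against 7.28, 7.49 and 7.39 in siTARDBP, and the groups overlapped. The difference was -0.05 (SE 0.097), with an interval from -0.26 to 0.15 (limma adjusted p = 0.781). It was -0.16 within the 4 arrays of higher background and 0.15 in the pair of lower background, so the arrays numbered 2 went the other way.

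The other ID2 probe, ILMN_2086095, was brighter and gave a larger difference. Raw values were 268.9, 215.3 and 260.02 in siLuc and 240.8, 184.8 and 171.8 in siTARDBP. On the normalised log2 scale these were 7.96, 7.95 and 8.03 in siLuc and 7.77, 7.87 and 7.64 in siTARDBP. All 3 siTARDBP arrays lay below all 3 siLuc arrays, a separation that 29.5% of all tested probes showed in one direction or the other. The difference of -0.22, 1.16-fold lower, had an SE of 0.096 and an interval from -0.42 to -0.02, and it did not pass the threshold (limma unadjusted p = 0.0345, adjusted p = 0.156). It was -0.29 within the arrays of higher background and -0.08 in the pair of lower background. Whether the ID2 probes differed from each other was not tested.

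ID3 was the dimmest member, and its probe lay at the edge of detection. Raw intensities were 116.9, 106.9 and 124.2 in siLuc and 126.0, 112.5 and 133.3 in siTARDBP. These were 0.968 to 1.31 times the background level on the siLuc arrays and 1.09 to 1.38 times on the siTARDBP arrays, above it on 5 of 6. The normalised log2 levels were 6.93, 7.06 and 7.02 in siLuc and 6.96, 7.20 and 7.27 in siTARDBP. Replicates 2 and 3 of siTARDBP exceeded every siLuc array and replicate 1 did not. The difference of 0.14 had an SE of 0.10 and an interval from -0.08 to 0.35 (limma adjusted p = 0.42). It was 0.14 both within the arrays of higher background and in the pair of lower background. A large fall of ID3 would not have been measurable from this level.

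The fourth family member, ID4, was under the background level on all 6 arrays, at 0.284 to 0.512 of it, and was not tested.

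**Figure D1:**
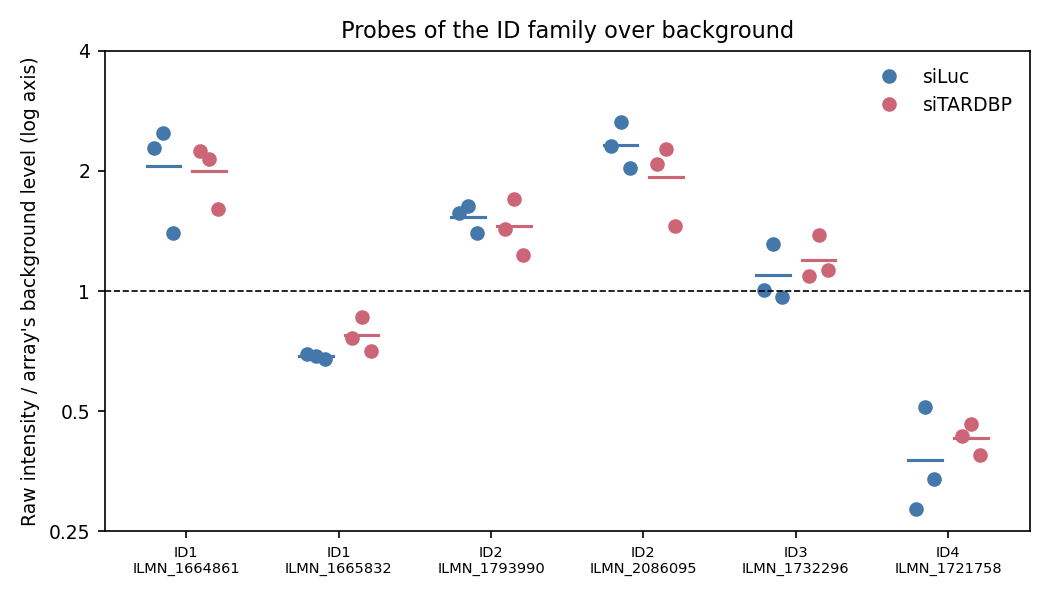
Raw intensity of the 6 ID family probes divided by the background level of the same array, on a log axis. Points are arrays, short bars are the means of 3 arrays and the dashed line is the background level; the ID1 member and both ID2 probes lie above it on all 6 arrays, ID3 sits at it, and the second ID1 probe and ID4 lie below it.

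Weaker compression left the picture of no called change. With an offset of 16 in place of 50, the differences were 0.05 for ID1 (interval -0.24 to 0.33), -0.07 for ID2 (interval -0.31 to 0.17) and 0.19 for ID3 (interval -0.08 to 0.45), with limma adjusted p of 0.869, 0.756 and 0.374. Among the tested probes, 84.9% had a larger moderated t in size than ID1, 74.9% a larger one than ID2 and 44.6% a larger one than ID3. The members stood at the 34.3, 22.9 and 10.7 percentiles of mean normalised brightness in the order ID1, ID2 and ID3. That order describes probes and does not rank their transcripts.

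**Figure D2:**
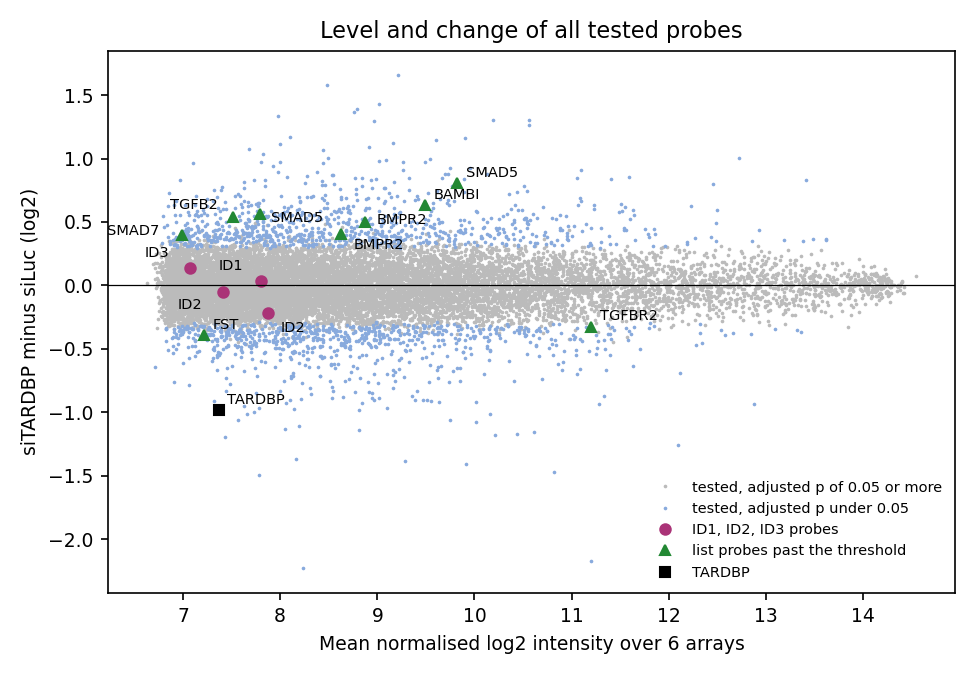
Mean normalised log2 intensity over 6 arrays (x axis) against the siTARDBP minus siLuc log2 difference (y axis) for all 15136 tested probes. The 4 tested ID probes (circles) lie within the grey band of probes not past the threshold, while TARDBP (square, -0.98) and 9 probes of the pathway list (triangles) passed it. Of these, TGFBR2 (-0.32) and SMAD7 (0.40) lie close in size to probes that did not pass.

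Whether the members changed by unequal amounts was tested within arrays, as the difference of their normalised log2 values. The change of ID1 exceeded that of ID2 by 0.09 and fell short of that of ID3 by a difference of -0.10, and the change of ID2 minus that of ID3 was -0.19. Exact two-sided permutation tests over the 6 arrays gave p = 0.8, 0.7 and 0.3, and 0.8 for each after Benjamini-Hochberg adjustment over the 3 pairs. With 3 arrays against 3 the smallest p is 0.1, so these tests could not reach the threshold. The first of these differences was -0.08 without siLuc replicate 3 and the second 0.02 without siLuc replicate 1. Across the 6 arrays the normalised levels correlated with r of -0.554 between ID1 and ID2, -0.216 between ID1 and ID3 and 0.121 between ID2 and ID3. These are descriptions over 6 arrays that share their processing.

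For each member, the named probes whose level ran most alike over the 6 arrays were found among 12266 tested probes with 1 gene symbol. For ID1 they were SOCS5 (r = 0.993), TRMT1L (r = 0.992) and NRDC (r = 0.991). For ID2 they were DNAAF2 (r = 0.996), RPL29 (r = 0.993) and MARCHF6 (r = 0.991), and for ID3 TYMP (r = 0.991), ST7 (r = 0.990) and PUS1 (r = 0.984). None of these 9 passed the threshold between groups, which 11.2% of all tested probes passed. They were picked for running like members that did not pass, so this adds nothing about the groups. Of the 12266 probes, 91, 64 and 109 exceeded r of 0.9 with ID1, ID2 and ID3, so the named ones were the highest of many.

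The partners of the ID proteins were considered next. Of the E proteins, TCF3 and TCF12 were tested and TCF4 was under background. The difference was 0.17 for TCF3 (limma adjusted p = 0.356) and -0.03 and -0.02 for the TCF12 probes ILMN_1669832 and ILMN_2314007. The TCF3 levels were 8.34, 8.50 and 8.13 in siLuc and 8.40, 8.48 and 8.59 in siTARDBP, with overlap. No E protein probe passed the threshold.

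The list of other pathway genes held 46 genes, of which 45 had a probe, 26 were tested and 19 did not pass the filter. Of those 19, NOG was above background on 2 arrays and the others on none. Of its 32 tested probes, 7 were higher and 2 lower (28.1%, against 11.2% of all tested probes), and the median difference was 0.04 against -0.0042 for all tested probes. By gene, 5 rose and 2 fell. The rises include a SMAD7 probe above background on 1 siLuc array and 3 siTARDBP arrays, which was tested mainly through the group in which it was higher. SMAD5 and BMPR2 each gave 2 of the higher probes. The list was drawn up with earlier results of these data known, so its share beside that of all tested probes is a description only.

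Among ligands, 7 of 8 genes were under background, BMP2, BMP4, BMP6, BMP7, GDF5, INHBA and TGFB1. The exception was TGFB2, a secreted ligand that signals through TGFBR2 to SMAD2 and SMAD3, the other branch of the family. Its intensities were 156.7, 120.9 and 144.8 in siLuc and 280.8, 151.8 and 184.9 in siTARDBP. The normalised levels of 7.28, 7.21 and 7.23 in siLuc rose to 7.98, 7.61 and 7.74 without overlap. The difference was 0.54 (SE 0.10, 1.45-fold, limma adjusted p = 0.00267).

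Among receptors, BMPR2, the type II receptor of BMP ligands, was higher with both of its probes. The brighter probe ILMN_1789095 gave 466.05, 360.7 and 371.9 in siLuc and 645.8, 420.1 and 502.5 in siTARDBP. Its normalised log2 levels of 8.70, 8.66 and 8.50 stood against 9.15, 9.03 and 9.18, a difference of 0.50 (SE 0.096, 1.41-fold, limma adjusted p = 0.0026). The groups did not overlap for either probe. The second probe, ILMN_2070896, differed by 0.41 (SE 0.10, limma adjusted p = 0.0152). Its call was lost when siLuc replicate 1, siLuc replicate 2 or siTARDBP replicate 1 was left out, with adjusted p of 0.0503, 0.0698 and 0.0763, and in the 4 arrays of higher background alone (0.0656). Both BMPR2 probes missed the threshold under scaling by the median of all probes (0.0925 and 0.224).

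TGFBR2, the type II receptor of TGF-beta, fell with 1 of its 3 tested probes. The bright probe ILMN_2384241 had normalised levels of 11.46, 11.27 and 11.36 in siLuc and 11.11, 11.07 and 10.94 in siTARDBP, a difference of -0.32 (SE 0.096, 1.25-fold lower, limma adjusted p = 0.0377). This call was lost in each of the 6 settings that left out 1 array, with adjusted p between 0.0508 and 0.16, and also with an offset of 16 (0.0647), without the filter on dim probes (0.0781) and in the 4 arrays of higher background alone (0.0896). The probe ILMN_1726245 differed by -0.24 (adjusted p = 0.17) and ILMN_1744862, above background on 3 arrays, by 0.10 (adjusted p = 0.617). The type I and type II receptors ACVR1, ACVR1B and ACVR2A and the co-receptor ENG differed by between -0.15 and 0.09 and did not pass. BMPR1B, ACVR2B, ACVRL1 and TGFBR1 were under background.

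Among SMADs, SMAD5, which carries BMP signals to the ID genes, showed the largest rise of the list. The probe ILMN_1674551 gave raw intensities of 793.4, 625.5 and 723.2 in siLuc and 1399, 947.7 and 1056 in siTARDBP. Its normalised level was 9.42 on each siLuc array and 10.27, 10.18 and 10.24 on the siTARDBP arrays. The difference was 0.81 (SE 0.090), with an interval from 0.62 to 1.00 (1.75-fold, limma adjusted p = 1.78e-05). A dimmer SMAD5 probe, ILMN_2371984, had levels of 7.54, 7.60 and 7.40 against 8.20, 7.99 and 8.05, a difference of 0.56 (1.48-fold, limma adjusted p = 0.00122). Both SMAD5 probes passed the threshold in all 19 alternative settings. The other SMADs tested did not pass: SMAD2 differed by -0.03, SMAD3 by 0.10 and the shared partner SMAD4 by -0.16. The tested SMAD2 probe was dim, above background on 4 arrays. SMAD1 and SMAD9, which share the role of SMAD5, were under background.

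Inhibitors of the pathway moved in both directions. BAMBI, a membrane pseudoreceptor that blocks BMP and TGF-beta receptors and is itself induced by these signals, gave 678.3, 540.4 and 567.1 in siLuc and 1040.4, 757.1 and 743.0 in siTARDBP. Its normalised levels of 9.22, 9.22 and 9.09 rose to 9.84, 9.85 and 9.74, a difference of 0.63 (SE 0.093, 1.55-fold, limma adjusted p = 0.000271). The groups did not overlap, and the call held in all 19 alternatives.

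SMAD7, an inhibitory SMAD induced by the same signals, was read by 2 probes, of which 1 passed the threshold. The dim probe ILMN_2203891 rose by 0.40 (limma adjusted p = 0.017), with raw values of 102.4, 94.5 and 98.6 in siLuc and 148.6, 102.1 and 140.2 in siTARDBP. It exceeded background on 1 siLuc array and on all 3 siTARDBP arrays, so it was tested mainly through the group in which it was higher. Its call was lost without siLuc replicate 1, siLuc replicate 3 or siTARDBP replicate 3 (adjusted p between 0.0554 and 0.0926) and under scaling by the median of all probes (0.128). The other probe, ILMN_2203896, was above background on all 6 arrays and differed by 0.08 (adjusted p = 0.686). Whether the SMAD7 probes differed from each other was not tested.

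FST, which encodes follistatin, a secreted binder of activins and some BMPs, fell from 175.1, 148.8 and 159.7 in siLuc to 129.8, 99.2 and 115.2 in siTARDBP. The tested FST probe was above background on 3 siLuc arrays and 2 siTARDBP arrays. The normalised levels of 7.42, 7.47 and 7.36 stood against 6.99, 7.03 and 7.04, a difference of -0.39 (SE 0.091, 1.31-fold lower, limma adjusted p = 0.00954). The call was lost without siLuc replicate 2 (adjusted p = 0.0525), under scaling by the median of all probes (0.0542) and in the 4 arrays of higher background alone (0.0839). FSTL1, GREM1, SKI, SKIL, SMURF1 and SMURF2 differed by between -0.14 and 0.13 and did not pass. The tested SKI and SKIL probes were dim, each above background on 4 arrays. SMAD6 was under background, and NOG, above it on 2 arrays, 1 of each group, was not tested.

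**Figure D3:**
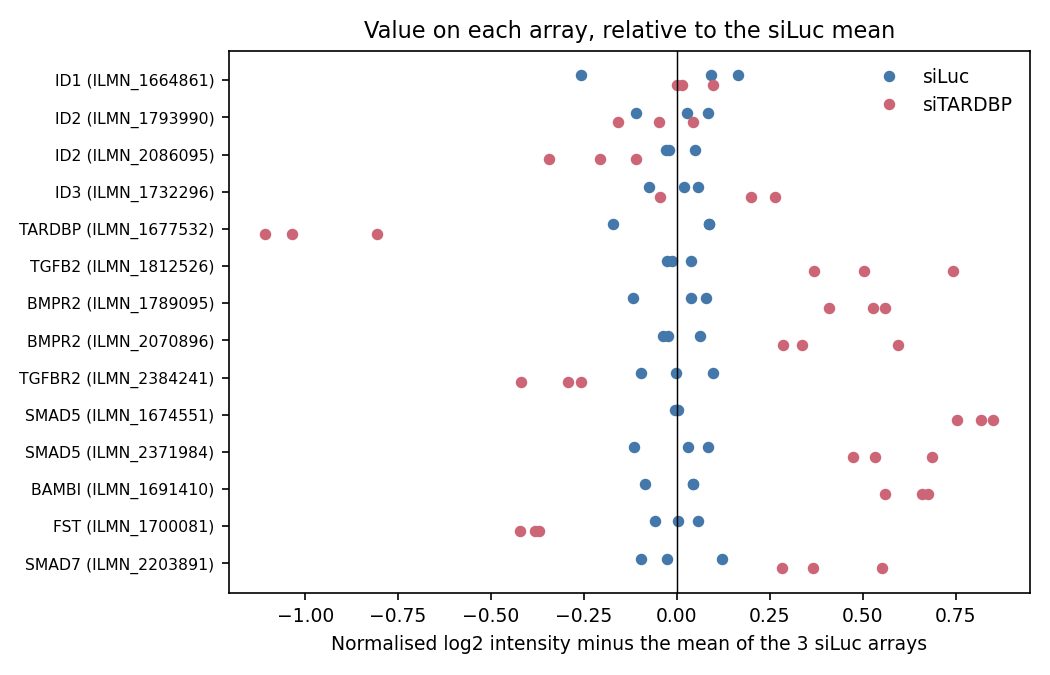
Normalised log2 intensity on each array minus the mean of the 3 siLuc arrays, for the tested ID probes, TARDBP and the 9 list probes past the threshold. The siTARDBP points of ID1, of the ID2 member and of ID3 overlap the siLuc points. Those of the other ID2 probe and of TARDBP lie left of all siLuc points, and those of SMAD5, BMPR2, BAMBI and TGFB2 lie right of them.

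Genes listed as other helix-loop-helix targets or partners, or as held down through ID proteins in other cells, did not pass the threshold. HES1, above background on 3 arrays, differed by 0.05 and HEYL by -0.04, and HEY1 was under background. CDKN1A, a cell cycle inhibitor that ID proteins restrain in other cells, had levels of 11.83, 11.84 and 11.84 in siLuc and 11.78, 11.64 and 11.66 in siTARDBP, a difference of -0.15 (limma adjusted p = 0.341). THBS1, which encodes an angiogenesis inhibitor repressed by ID1 in mouse cells, differed by 0.23 (SE 0.13, limma adjusted p = 0.308). CDKN2A and CDKN2B were under background.

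**Figure D4:**
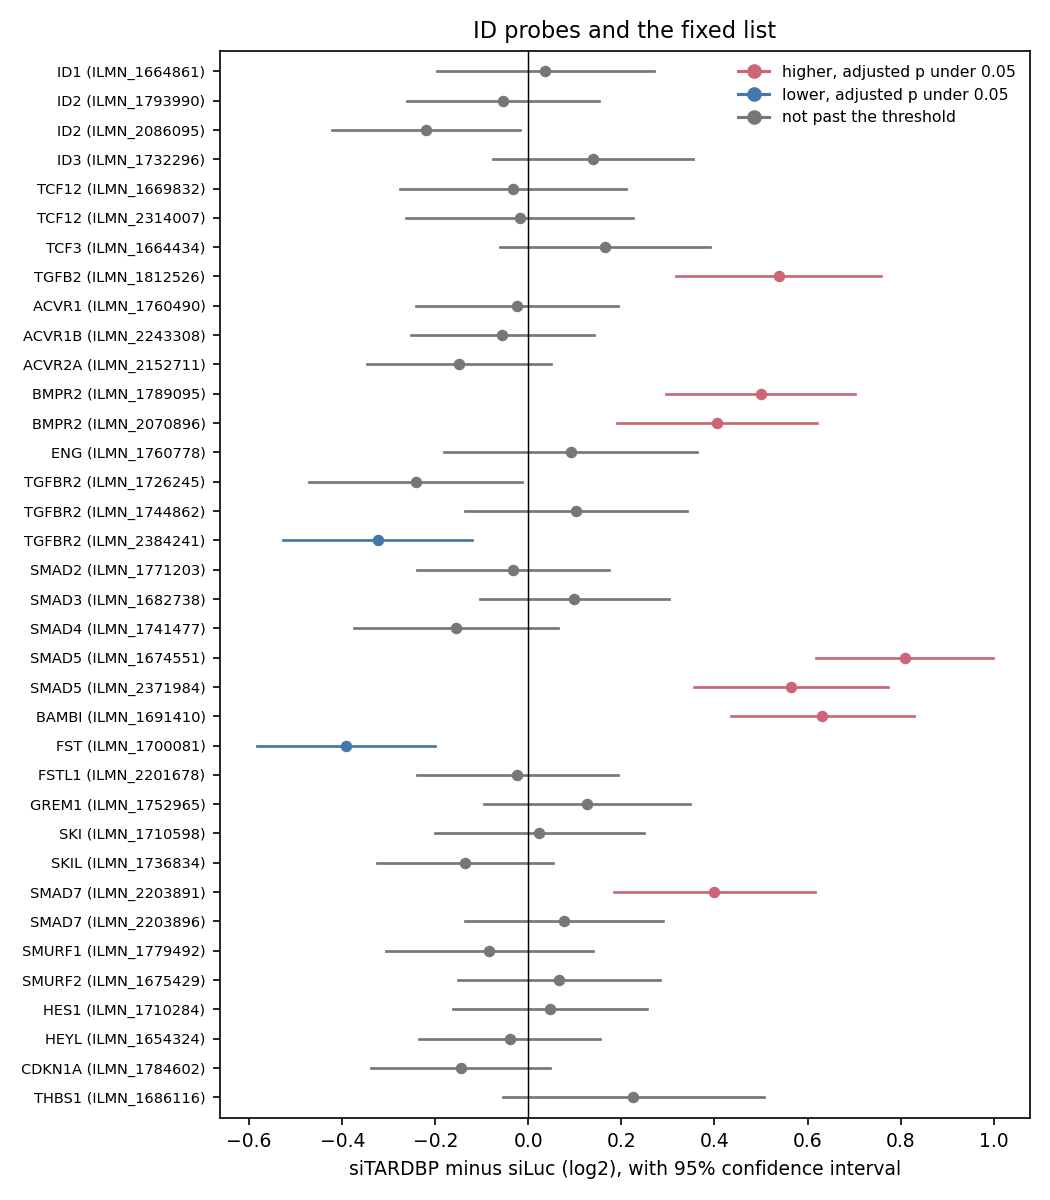
The siTARDBP minus siLuc log2 difference (points) with its 95% confidence interval (lines) for the 4 tested ID probes and the 32 tested probes of the pathway list, coloured by the call. The intervals of ID1, the ID2 member and ID3 span 0, and the largest rise is that of SMAD5 at 0.81. The interval of the other ID2 probe, which did not pass the threshold, lies below 0 (-0.42 to -0.02).

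In limma, 0 of 3 ID members passed the threshold, which 11.2% of all tested probes passed. The other ID2 probe, ILMN_2086095, did not pass either (limma unadjusted p = 0.0345, adjusted p = 0.156). The difference between the change of an ID member and that of SMAD5, BMPR2 or BAMBI was not itself tested. These are RNA levels, and no SMAD or ID protein was measured here.

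**Figure D5:**
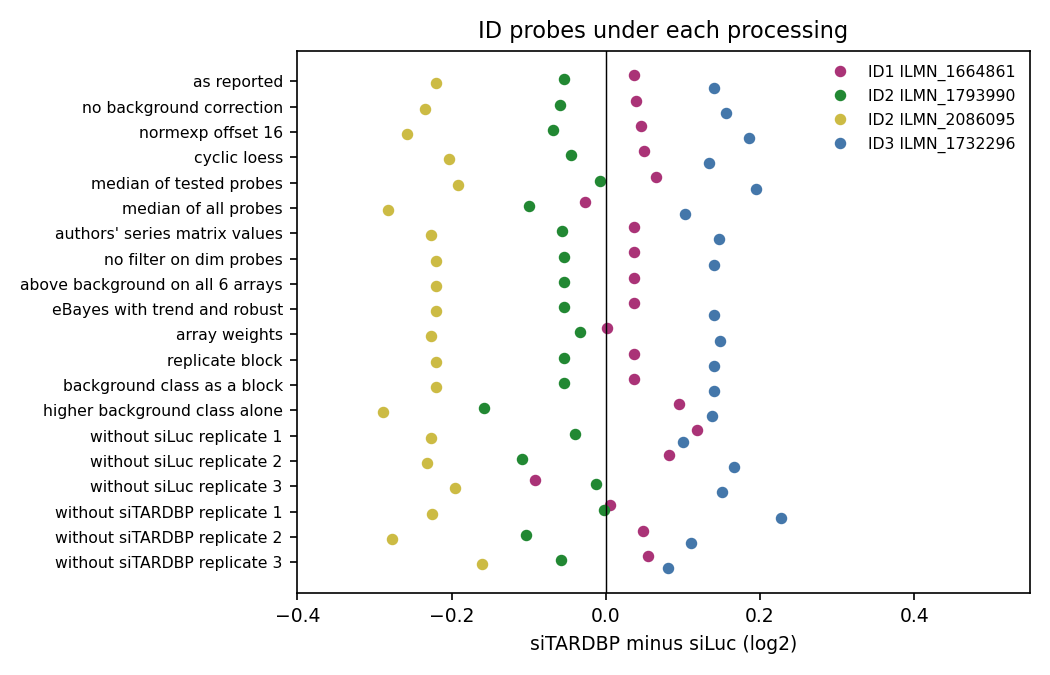
The siTARDBP minus siLuc log2 difference of the ID probes (x axis) as reported and under 19 other settings (y axis). ID3 stays above 0 and both ID2 probes stay below 0, while ID1 crosses 0 without siLuc replicate 3 and under scaling by the median of all probes.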

How the data were processed

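RNA of 6 samples was measured on Illumina Human-HT12 arrays. The deposited table holds linear, non-normalised intensity, exported by the authors with BeadStudio, per the labels and the submitters' processing notes. Version and background subtraction: not given in the sources used here. A second file deposited by the authors, the series matrix, holds quantile-normalised log2 values in the same rank order on each array (Spearman correlation 1) and served as an alternative. Probes were named from GEO's platform annotation: 30113 had 1 gene symbol, 8 several and 17110 none listed. Probes of a gene were not merged.

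Intensities were background-corrected by normexp (offset 50), quantile-normalised and log2-transformed (R 4.3.3, limma 3.58.1). Per array, values under the mode of the dim peak were mirrored, and the level covering 95% of them was the background level. The 15136 probes above it on at least 3 arrays were tested by limma's lmFit and eBayes, siTARDBP against siLuc, with Benjamini-Hochberg adjustment and a threshold of 0.05. The procedure was tested on simulated arrays. Named genes are the 3 members, TARDBP, every tested gene of the list and the 3 most alike probes per member. Members and lists were chosen with earlier results of these data known. BMPR1A was not analysed here. Same-numbered arrays deviated together by r of 0.106, 0.103 and -0.0025, and differently numbered ones by -0.159 to 0.0639. Numbers were not treated as pairs in the main fit, and a replicate block served as an alternative. Whether same-numbered arrays shared a batch was not tested. The number of arrays limits the precision.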

Additional observations from a re-analysis of the deposited data

How the results depend on the processing

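No ID member passed the threshold under any of the alternatives in which it was tested, 19 for ID1 and ID2 and 18 for ID3, with a lowest adjusted p of 0.605, 0.454 and 0.207. ID1 reversed to -0.027 under scaling by the median of all probes and to -0.091 without siLuc replicate 3. Under that scaling the median difference of all tested probes was -0.088, against -0.0042 as reported. Leaving out 1 array gave -0.091 to 0.12 for ID1, -0.11 to -0.0022 for ID2 and 0.08 to 0.23 for ID3. The difference of change of ID1 and ID2 then lay between -0.079 (without siLuc replicate 3) and 0.19, that of ID1 and ID3 between -0.24 and 0.017 (without siLuc replicate 1) and that of ID2 and ID3 between -0.28 and -0.14. The cause of these reversals was not tested. The second ID2 probe had adjusted p between 0.0947 and 0.425. Over all probes, 1015 passed under scaling by the median of all probes, 855 in the arrays of higher background alone, which are fewer, and, by stricter rules, 764 at an adjusted p of 0.01 and 333 with a 1.5-fold minimum. Leaving out 1 array gave 948 to 1784, the lowest without siTARDBP replicate 3, and 959 without siLuc replicate 2. Of the list, 9 probes passed as reported, 5 under scaling by the median of all probes and 6 in the arrays of higher background and 6 to 8 without 1 array; recounting the list under each alternative was chosen after seeing the data. Without siLuc replicate 2, and in the arrays of higher background alone, no list probe was lower. In each other setting without 1 array, 1 was lower, against 2 as reported. With the replicate block 1747 probes passed, 9 of them on the list, and ID1, ID2 and ID3 had adjusted p of 0.856, 0.775 and 0.363. Negative-control correction and a slide block were not run, since the files hold neither. Signal over background limits ID3 and ID4 most.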
